A study of Sus scrofa with 6 samples.

Results

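The 10 genes studied here code for histone lysine demethylases, enzymes that take methyl groups off lysines of histone tails, and their expression was followed from pig fibroblasts to the induced cells made from them. They are 10 of the 18007 genes in the deposited table and were chosen by gene symbol: KDM1A, KDM1B, KDM2A, KDM2B, KDM3A, KDM4A, KDM4B, KDM4C, KDM5B and KDM6B. The authors' gene names hold 9 of them, and KDM1B (ENSSSCG00000001074), listed by identifier only, was named through that identifier. The PEF group holds 3 libraries, PEF5, PEF7 and PEF8, of porcine embryonic fibroblasts cultured from ear tips of embryos at embryonic day 90. The embryos shared a boar labelled Longwhite, which the study calls Large White, and a Meishan sow as parents. The piPSC group holds 3 libraries, piPSC5, piPSC7 and piPSC8, of porcine induced pluripotent stem cell lines, labelled ips5, ips7 and ips8. Each derives from the like-numbered PEF line through lentiviral Oct4, Sox2, Klf4 and cMyc under doxycycline control, was expanded from picked colonies, and grew on mouse feeder cells with doxycycline. Every line gave 1 poly-A RNA-seq library, so p-values measure the spread between lines, and passage, medium and feeders cannot be told apart from reprogramming.

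The values are FPKM, fragments scaled by transcript length and library total, so levels can be compared between genes. The libraries held 11010629 to 17836510 fragments, fewest in piPSC7 and piPSC8, and the demethylase genes rested on 97 to 2383 fragments each. The fibroblast markers (10 of 10 listed, COL1A1 and DCN among them) summed to 4723 to 6789 FPKM in PEFs and 173 to 261 FPKM in piPSCs. Of the 8 pluripotency markers found in the table, 6 lay below 1 FPKM in all 6 libraries, NANOG, SALL4 and ESRRB among them, and only SOX2 and LIN28B passed 1 FPKM in some piPSCs. Keratinocyte and endothelial markers stayed below 4 FPKM in sum in every library, chondrocyte markers below 5 FPKM, and immune markers reached 22.8 FPKM in PEF7, mostly from CD14. The part that other cells or mouse feeder RNA have in these values was not tested. In bulk RNA, fewer cells of a type and less RNA per cell cannot be told apart.

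Histone demethylases work by different chemistries. KDM1A (LSD1) and KDM1B (LSD2) are flavin-dependent amine oxidases that act on mono- and dimethylated H3K4. The other members carry a Jumonji C (JmjC) domain, which needs iron, oxygen and 2-oxoglutarate and can also remove trimethyl marks. H3K4 methylation marks active promoters and enhancers, H3K36 methylation lies over transcribed genes, and H3K9 and H3K27 methylation accompany silent chromatin. In fibroblast reprogramming, removal of H3K9 and H3K36 methylation is known to help induced cells form, while KDM6B is known as a barrier in mouse cells.

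In piPSCs, 3 of the 10 demethylase genes rose, KDM1B, KDM2B and KDM5B, and 0 fell (limma on log2(FPKM + 1), adjusted p under 0.05). The count was 3 and 0 as well with voom on fragments recovered from the values and at an unadjusted p under 0.05, which can only add calls. It was 2 and 1 with either rescaling of the libraries, 2 and 0 with the line as a block, and 1 and 0 without PEF7. Over all 12428 genes tested, 51.7% passed in limma as deposited and 30.3% passed with piPSCs higher, so the members' count of 3 was no larger than that of genes at large. Of the 3, 2 also passed a 2-fold threshold, KDM1B and KDM2B, where 20.2% of all genes did. In KDM1B, KDM2B and KDM5B every piPSC value lay above every PEF value, a pattern that 37.3% of all genes showed. In all, 4 members were higher in the piPSC than in its own PEF in each of 3 lines (these 3 and KDM6B), beside 42.9% of all genes. The members' median log2 fold change was 0.41 and that of all genes tested was 0.20. After rescaling the libraries by their median ratio, these medians were 0.15 and -0.01, and after rescaling them to equal sums 0.10 and -0.06. Over all genes, 3763 rose and 2667 fell as deposited, against 2830 and 3250 with the median ratio and 2627 and 3383 with equal sums.

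**Figure D1:**
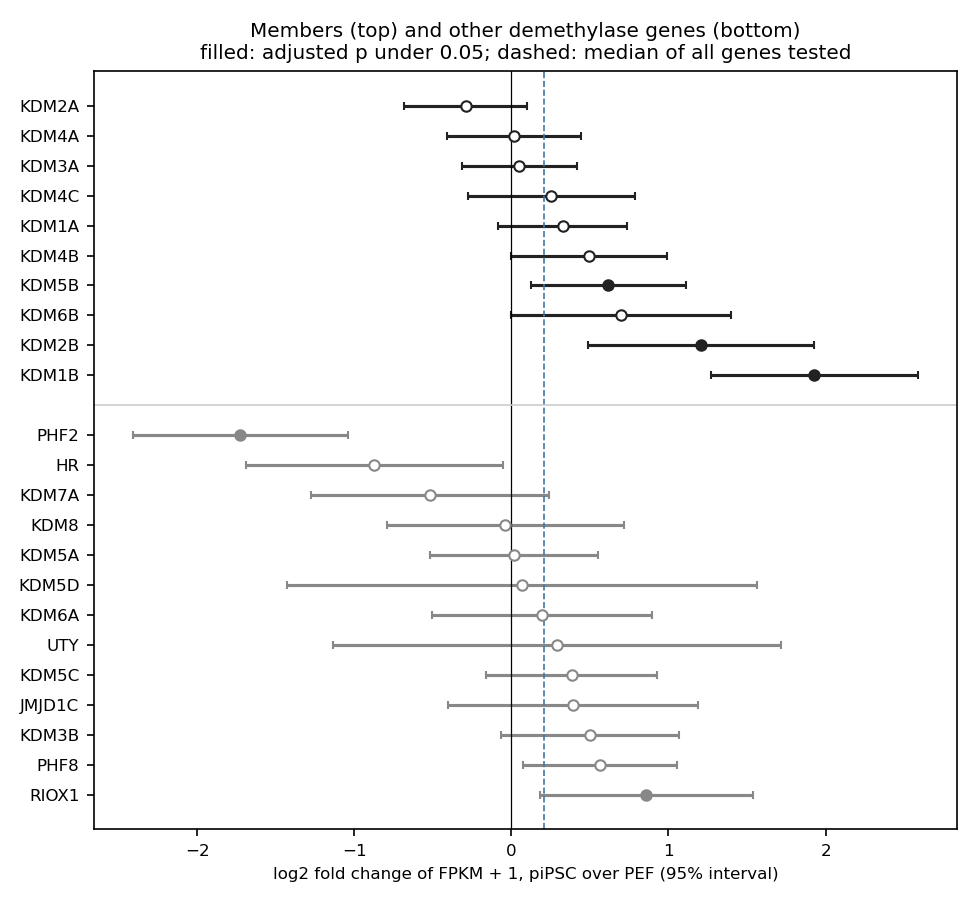
Log2 fold change of FPKM + 1 (piPSC over PEF, horizontal axis, with the 95% interval) for the 10 members above the grey line and for 13 other demethylase genes below it. Filled points passed at an adjusted p under 0.05 and the dashed line is the median of all genes tested at 0.20. KDM1B, KDM2B and KDM5B are the filled members, and PHF2 at -1.72 is the lowest of the genes shown.

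The promoters of KDM1B and KDM2B are shown because these genes moved the same way and passed the 2-fold threshold. Each run covers 250 bases before and 30 bases from the RefSeq gene start on Sscrofa11.1, read 5′ to 3′ along the gene, in lower case with GC boxes (GGGCGG, or CCGCCC where the match is on the other strand) in capitals. KDM1B lies on the plus strand with its window at chr7:13846033-13846312, and KDM2B on the plus strand at chr14:31056871-31057150.
KDM1B: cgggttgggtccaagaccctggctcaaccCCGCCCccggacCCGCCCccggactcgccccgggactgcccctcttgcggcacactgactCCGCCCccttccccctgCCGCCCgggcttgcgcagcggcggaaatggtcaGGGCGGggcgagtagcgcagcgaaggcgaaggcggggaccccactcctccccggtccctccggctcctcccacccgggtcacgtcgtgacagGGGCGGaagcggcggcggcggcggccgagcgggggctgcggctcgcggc
KDM2B: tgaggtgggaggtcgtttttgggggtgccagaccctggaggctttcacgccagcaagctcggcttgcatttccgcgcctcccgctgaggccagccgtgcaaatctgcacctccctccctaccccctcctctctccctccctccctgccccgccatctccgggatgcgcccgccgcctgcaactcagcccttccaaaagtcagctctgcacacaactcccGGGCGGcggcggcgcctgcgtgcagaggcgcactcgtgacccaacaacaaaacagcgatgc
The KDM1B window held 6 GC boxes and 36 CpG, and that of KDM2B held 1 GC box and 21 CpG. The KDM1B window also holds the RefSeq start (13846107) of TPMT, a gene on the other strand, so its letters are not those of KDM1B alone. The median over 19556 promoters of protein-coding genes was 14 CpG, and 49.3% of them held a GC box. On both strands, the MYC E-box CACGTG, the octamer ATGCAAAT, the AP-1 site TGACTCA and CCAAT had 0 matches in both windows. Among all promoters these motifs were found in 7.43%, 1.33%, 3.22% and 34.2%. Across the 9 members searched a GC box was found in 8, CCAAT in 3 (KDM3A, KDM4A and KDM4B) and the E-box in 2 (KDM4B and KDM4C), none of which passed the test of expression. A match is a run of letters and no bound site. In the deposited annotation KDM1B starts at 13845942 and KDM2B at 31057005, not at the RefSeq starts 13846283 and 31057121.

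Among the flavin enzymes, KDM1B rose and its paralogue KDM1A, the better-known LSD1 of the CoREST and NuRD complexes, did not pass. KDM1B, which clears H3K4 methylation in gene bodies and is needed to set maternal imprints in the oocyte, stood at 1.94, 0.969 and 1.50 FPKM in PEF5, PEF7 and PEF8. It stood at 6.93, 6.95 and 11.6 FPKM in piPSC5, piPSC7 and piPSC8. All piPSC values were above all PEF values, and the highest was that of piPSC8. The means were 1.47 ± 0.485 and 8.51 ± 2.72 FPKM (SD, n = 3 each), a ratio of 5.79, and the log2 fold change was 1.93 with a standard error of 0.28 (limma, adjusted p = 0.00204). This was the largest change of the 10 genes, higher than in 94.2% of all genes tested, and KDM1B passed in all 15 alternatives. In PEFs it was the lowest of the 10 with 97 to 207 fragments a library, and it moved from the 18.6 to the 55.3 percentile of all genes by mean level.

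KDM1B shares its place with other genes, and strand was not recorded as kept in the libraries. A gene without a symbol on the opposite strand, ENSSSCG00000033647 (chr7:13867734-13919401), overlaps it, and the table's protein match for that gene also reads KDM1B, so which entry holds all KDM1B fragments is uncertain. The row taken here is the one that carries the amine oxidase domain and the KDM1B mRNA match. The opposite-strand gene stood at 0.264 to 0.791 FPKM in PEFs and 1.46 to 3.28 FPKM in piPSCs with 5 to 41 fragments a library, and it passed as higher (log2 difference 0.92, adjusted p = 0.0430 in limma). TPMT, a thiopurine methyltransferase on the other strand, starts 176 bases before KDM1B in RefSeq and overlaps it in the deposited models. It stood at 27.6, 16.6 and 6.45 FPKM in PEFs and 18.1, 46.0 and 13.6 FPKM in piPSCs and did not pass (adjusted p = 0.430). TPMT was highest in piPSC7 and KDM1B in piPSC8. The opposite-strand gene was highest in piPSC8 and lowest in PEF7, as KDM1B was. The part that shared fragments have in these values was not tested.

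KDM1A (ENSSSCG00000003531, chr6:80903358-80973632, plus strand) was the most highly expressed of the 10 genes in both groups. Its values were 22.2, 24.5 and 18.3 FPKM in PEFs and 27.5, 24.1 and 30.3 FPKM in piPSCs. The groups overlapped through line 7, where the PEF and piPSC values were nearly equal. Its log2 fold change of 0.33 had a 95% interval from -0.08 to 0.74 (limma, adjusted p = 0.151), and the rescalings brought it to 0.067 and 0.016. Without PEF8 it was 0.21. In the deposited models 2 genes overlap KDM1A, 1 of them, LUZP1, on the opposite strand. LUZP1 passed as lower (-0.88 on the log2 scale, limma adjusted p = 0.0135).

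KDM2A and KDM2B, which bind unmethylated CpG through a CXXC zinc finger and act on H3K36me2, gave 1 call. KDM2B, which also brings a variant Polycomb complex to CpG islands, stood at 2.71, 1.64 and 2.17 FPKM in PEFs and 6.20, 4.15 and 9.30 FPKM in piPSCs. Every piPSC value was above every PEF value, piPSC7 and PEF7 being lowest in their groups. The ratio of the means was 3.01 and the log2 fold change 1.21 with a standard error of 0.30 (limma, adjusted p = 0.0158). Without PEF7 the change was 1.08 and missed the threshold (adjusted p = 0.0548), and KDM2B passed in the other 14 alternatives. Its 3′ end overlaps RNF34, a ubiquitin ligase gene on the opposite strand that also passed as higher (0.93 on the log2 scale, limma adjusted p = 0.0467). RNF34 was highest in piPSC7, where KDM2B was lowest among piPSCs. The part that shared fragments have in either gene was not tested.

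KDM2A (ENSSSCG00000029637, chr2:5239049-5360529, minus strand) was the only member with a negative log2 fold change. It stood at 15.7, 13.5 and 17.7 FPKM in PEFs and 12.5, 13.4 and 11.6 FPKM in piPSCs. All piPSC values lay below all PEF values, though barely so for piPSC7 and PEF7. The log2 fold change of -0.29 (standard error 0.16) did not pass as deposited (limma, adjusted p = 0.175). It passed as lower with the median ratio rescaling (-0.54, adjusted p = 0.0247) and with equal sums (-0.62, adjusted p = 0.0268).

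KDM5B (ENSSSCG00000010928), a JmjC enzyme that removes trimethyl marks from H3K4, rose by less. It stood at 13.6, 10.8 and 16.3 FPKM in PEFs and 21.9, 24.2 and 17.6 FPKM in piPSCs. The groups stayed apart only narrowly, PEF8 and piPSC8 being the nearest values. The ratio of the means was 1.57 and the log2 fold change 0.62 with a standard error of 0.21 (limma, adjusted p = 0.0432). With the line as a block, which is how these lines pair by origin, the adjusted p was 0.0935, and with the rescalings it was 0.138 and 0.256. The call was also lost without PEF5 (adjusted p = 0.0945), PEF7 (0.121), piPSC5 (0.118) or piPSC7 (0.110), and it was kept in 6 of 15 alternatives. In the deposited models 1 gene on the opposite strand overlaps KDM5B, and its part in these values was not tested.

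**Figure D2:**
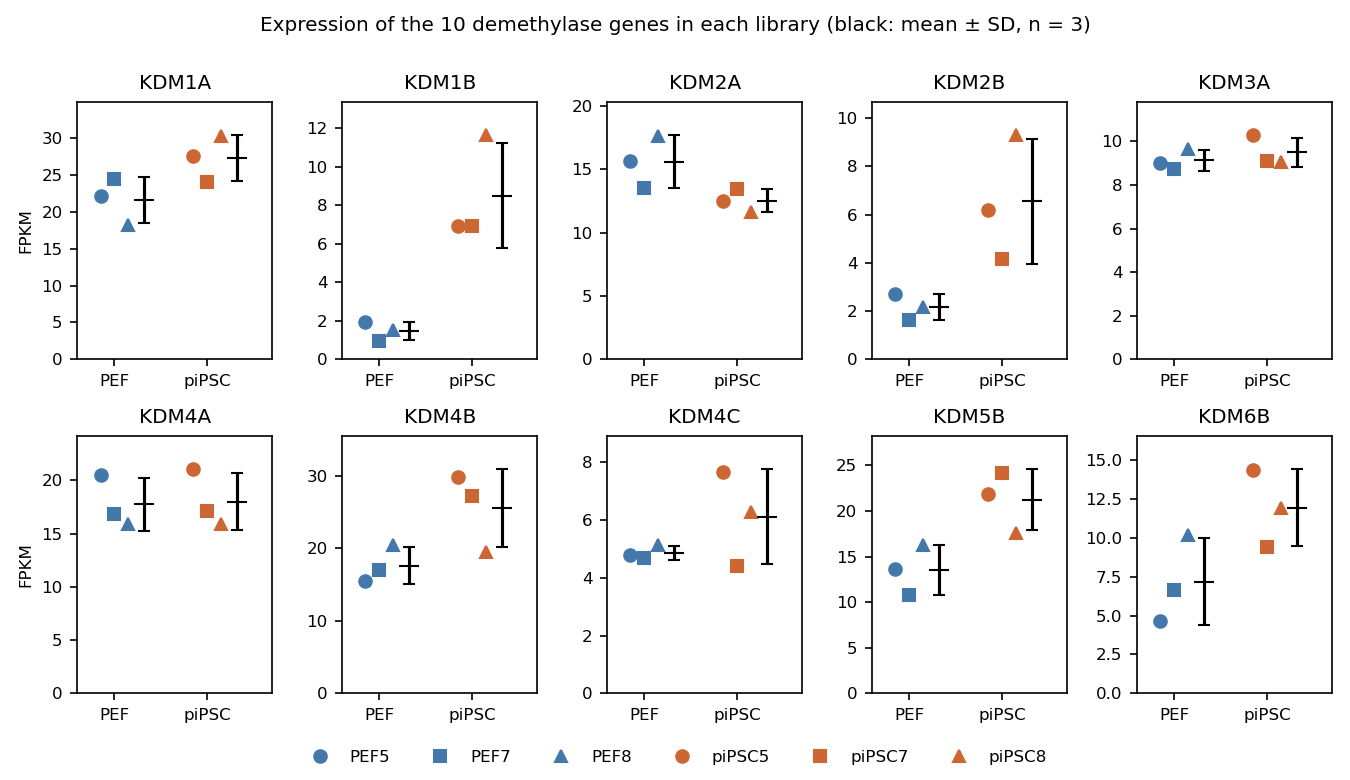
FPKM (vertical axis, from 0, own scale for each gene) of the 10 members in the 3 PEF libraries (blue) and 3 piPSC libraries (orange), with circles for line 5, squares for line 7 and triangles for line 8, and black bars for the mean ± SD. The groups are apart in KDM1B, KDM2B and KDM5B, and in KDM2A with piPSCs lower, and they overlap in the other 6 genes.

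The KDM4 enzymes, which remove trimethyl marks from H3K9 and H3K36, gave 0 calls among 3 genes. KDM4A stood at 20.5, 16.8 and 15.9 FPKM in PEFs and 21.0, 17.1 and 15.9 FPKM in piPSCs. Each piPSC line was within 3% of its own PEF line here, and the spread lay between lines, with line 5 highest in both groups. Its log2 fold change of 0.02 had a 95% interval from -0.41 to 0.45 (limma, adjusted p = 0.937).

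KDM4B stood at 15.4, 17.0 and 20.4 FPKM in PEFs and 29.7, 27.3 and 19.5 FPKM in piPSCs. Lines 5 and 7 were higher after reprogramming and line 8 was not. The log2 fold change was 0.50 with a 95% interval from -0.00060 to 0.99 (limma, adjusted p = 0.0851), and without piPSC8 it was 0.67 and passed (adjusted p = 0.0318). With the rescalings it was 0.24 and 0.19 (adjusted p = 0.326 and 0.489). KDM4C, the lowest of the 3, stood at 4.80, 4.68 and 5.15 FPKM in PEFs and 7.68, 4.43 and 6.28 FPKM in piPSCs. Its piPSC values spread more widely than its PEF values, with coefficients of variation of 26.6% and 5.04%, and its log2 fold change of 0.25 did not pass (limma, adjusted p = 0.367). Without piPSC5 it was 0.098 and without piPSC7 0.44.

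KDM3A, which acts on mono- and dimethylated H3K9 and is known as a hypoxia-induced gene, did not pass. Its values were 9.03, 8.72 and 9.64 FPKM in PEFs and 10.3, 9.13 and 9.07 FPKM in piPSCs. The groups overlapped and the log2 fold change was 0.05 with a 95% interval from -0.32 to 0.42 (limma, adjusted p = 0.798). The signs of KDM3A and KDM4A turned negative with both rescalings and with quantile normalization, so neither has a direction here.

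KDM6B (JMJD3), which removes H3K27 methylation, stood at 4.66, 6.67 and 10.2 FPKM in PEFs and 14.4, 9.43 and 11.9 FPKM in piPSCs. It was higher in the piPSC of each line, but piPSC7 lay below PEF8 and the groups overlapped. The log2 fold change was 0.70 with a 95% interval from -0.0019 to 1.40 (limma, adjusted p = 0.0854), and without PEF8 it was 0.95 and passed (adjusted p = 0.0328). Without PEF5 it was 0.46 (adjusted p = 0.222), and with the rescalings 0.46 and 0.44 (adjusted p = 0.229 and 0.281). The deposited model of KDM6B is much longer than that of RefSeq. It spans 311965 bases (chr12:52796952-53108916) against 21878 bases (chr12:53087072-53108949), and 18 other genes of the table overlap it, 4 of them on the other strand. POLR2A, CHD3 and EIF4A1 are among the 18, and CHD3 and EIF4A1 lie on the plus strand as KDM6B does. Of these, EIF4A1, a translation factor at 212 to 258 FPKM in PEFs and 431 to 452 FPKM in piPSCs, passed as higher (0.92 on the log2 scale, limma adjusted p = 0.00282). How fragments in shared stretches were assigned is not given in the sources used here, so the level of KDM6B is uncertain.

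The order of the 10 genes by mean level differed between the groups, with KDM1A first in both. In PEFs it ran KDM1A (21.6 FPKM), KDM4A (17.7), KDM4B (17.6), KDM2A (15.6), KDM5B (13.5), KDM3A (9.13), KDM6B (7.17), KDM4C (4.87), KDM2B (2.17) and KDM1B (1.47). Neighbours in this order overlapped between libraries except for KDM5B over KDM3A and KDM4C over KDM2B. In piPSCs it ran KDM1A (27.3 FPKM), KDM4B (25.5), KDM5B (21.2), KDM4A (18.0), KDM2A (12.5), KDM6B (11.9), KDM3A (9.50), KDM1B (8.51), KDM2B (6.55) and KDM4C (6.13). Only KDM4A over KDM2A had no overlap there, so the gap that set KDM1B and KDM2B below the rest in PEFs was not seen in piPSCs. The 10 genes summed to 105 to 117 FPKM in PEFs and 140 to 158 FPKM in piPSCs, while the sum over all genes was also higher in piPSCs (420498 to 437853 against 337074 to 348943 FPKM). Their median coefficient of variation was 14.4% in PEFs and 18.3% in piPSCs, beside 23.7% and 24.7% over all genes tested. The genes were not matched for level here, and the median level of all genes tested was 6.55 FPKM in PEFs and 7.08 FPKM in piPSCs.

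Ratios between paralogues within a library do not depend on how that library was scaled. KDM1B over KDM1A was 0.0657 in PEFs and 0.303 in piPSCs (geometric means over 3 libraries), a log2 difference of 2.21. KDM2B over KDM2A was 0.137 in PEFs and 0.497 in piPSCs, a log2 difference of 1.86, and its highest value, in piPSC8, stood at -0.32 on the log2 scale. In both families the minor paralogue stayed below the major one in all 6 libraries. KDM5B over KDM5A, another H3K4 demethylase, was 2.98 in PEFs and 4.62 in piPSCs, and KDM3B over KDM3A was 0.0529 and 0.114. In these 4 of 9 pairs the groups did not overlap, and each gave an exact permutation p of 0.1 (two-sided), the smallest that 3 against 3 allows, or 0.225 adjusted over the 9 pairs. Other gene pairs were not counted. Among single genes 37.3% had every piPSC value above every PEF value. That share leaves out genes with every piPSC value lower, while pairs were counted in either direction, so the 2 cannot be compared directly. KDM3B lay at only 0.390 to 1.34 FPKM, with 34 to 104 fragments a library.

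The other 5 pairs overlapped. KDM4B over KDM4A was 0.992 in PEFs and 1.40 in piPSCs, with a log2 difference of 0.50 (exact permutation p = 0.2). KDM4C over KDM4A differed by 0.28 (p = 0.3) and KDM4C over KDM4B by -0.22 (p = 0.7) in the same exact permutation test. Without piPSC7 the latter was 0.052 and the former 0.46, and without piPSC8 they were -0.44 and 0.15. KDM5C over KDM5B differed by -0.25 (exact permutation p = 0.6), and by -0.00038 without piPSC7 and -0.52 without piPSC8. KDM6B over KDM6A differed by 0.56 (exact permutation p = 0.4), with log2 ratios of -0.38, 0.33 and 1.44 in PEFs and 1.02, 0.36 and 1.68 in piPSCs, highest in line 8 of both groups. Without PEF5 this difference was 0.14, without piPSC8 0.23, without PEF8 1.05 and without piPSC7 0.89. That of KDM4B over KDM4A was 0.30 without PEF5.

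**Figure D3:**
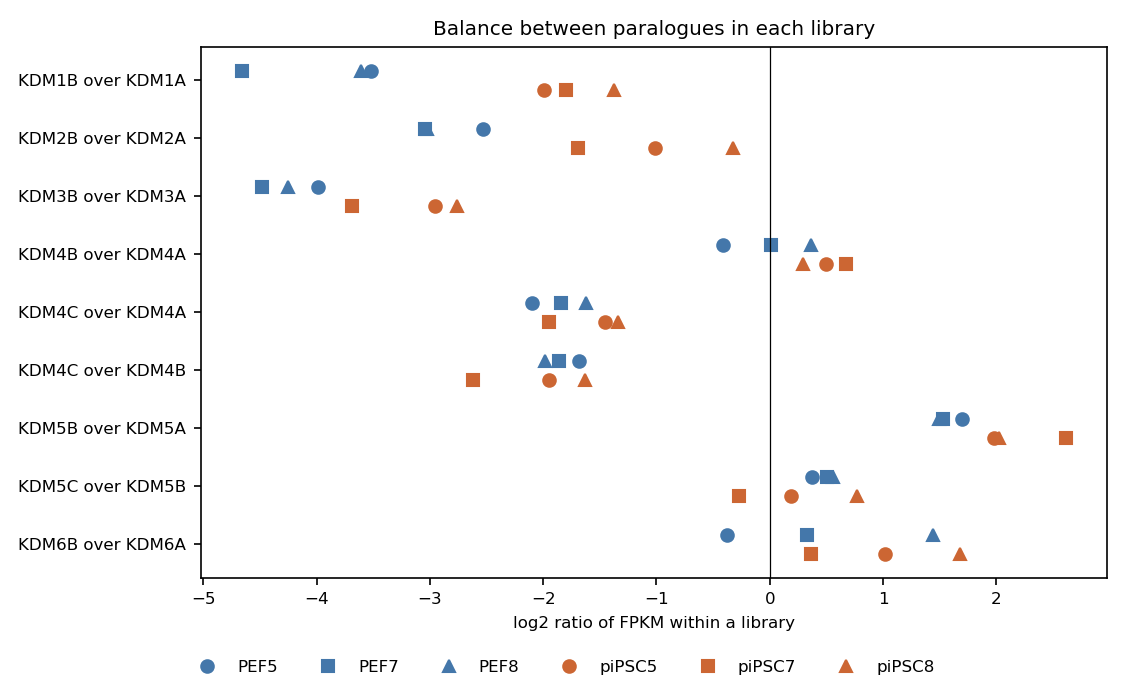
Log2 ratio of FPKM between 2 paralogues within each library (horizontal axis, 0 for equal levels), PEFs in blue above piPSCs in orange, with circles, squares and triangles for lines 5, 7 and 8. The groups are apart for KDM1B over KDM1A, KDM2B over KDM2A, KDM3B over KDM3A and KDM5B over KDM5A, and overlap in the other 5 pairs.

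The size of the change in a member was not the same in each line, and with 1 library per line and group a difference in response has no test. In KDM1B the log2 ratio of FPKM + 1 between a piPSC and its own PEF was 1.43 in line 5, 2.01 in line 7 and 2.34 in line 8. In KDM2B it was 0.96, 0.96 and 1.70. KDM5B had 0.65, 1.09 and 0.11, and KDM4B had 0.90, 0.65 and -0.06, so line 8 had the largest ratio in the former pair of genes and the smallest in the latter. KDM6B had 1.44, 0.44 and 0.21, where PEF5 was the lowest PEF library. The X- and Y-linked paralogues, singled out after their values were seen, also differed by line. The study describes all of its lines as male, which the Y-linked values here do not bear out for lines 5 and 7. The sex of the lines was not tested. KDM5D and UTY, on chromosome Y, were read in line 8 (1.84 and 2.27 FPKM, and 1.07 and 2.72 FPKM, in PEF8 and piPSC8), and elsewhere only UTY in piPSC5 was above 0, at 0.0140 FPKM. The X-linked KDM6A stood at 6.05, 5.32 and 3.75 FPKM in PEFs and 7.08, 7.34 and 3.72 FPKM in piPSCs, lowest in line 8 of both groups. The X-linked KDM5C stood at 17.6, 15.4 and 24.0 FPKM in PEFs and 24.9, 20.04 and 30.04 FPKM in piPSCs, highest in line 8 of both groups. PHF8, X-linked as well, stood at 2.85, 2.30 and 2.88 FPKM in PEFs and 5.43, 3.88 and 4.08 FPKM in piPSCs.

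Of 13 other demethylase genes tested, 1 rose and 1 fell, with a median log2 fold change of 0.20, near that of all genes. PHF2, an H3K9me2 demethylase with a PHD finger, fell from 7.19, 7.74 and 4.27 FPKM to 1.71, 1.18 and 0.772 FPKM. Every piPSC value was below every PEF value, the log2 fold change was -1.72 (limma, adjusted p = 0.00342), and it passed in all 15 alternatives. RIOX1, a nucleolar JmjC enzyme, rose by 0.86 (limma, adjusted p = 0.0414) but kept its call in only 5 of 15 alternatives. It lost the call without PEF5 (adjusted p = 0.0712), PEF7 (0.0764), PEF8 (0.115), piPSC5 (0.0770) or piPSC8 (0.0808), and with the line as a block it was 0.0871. With that block HR, the hairless corepressor, passed as lower (log2 fold change -0.87, adjusted p = 0.0473, against 0.0708 without it). KDM5A (log2 fold change 0.02), KDM5C (0.38), KDM3B (0.50), JMJD1C (0.39), KDM7A (-0.52) and PHF8 (0.56) did not pass. A list of 7 JmjC proteins not counted as histone demethylases gave 5 higher and 0 lower, beside 30.3% of all genes higher. RIOX2, a ribosomal oxygenase, rose 4.30-fold (3.50 to 6.18 FPKM in PEFs and 19.3 to 22.1 FPKM in piPSCs, limma adjusted p = 0.000852), and JMJD6 rose 2.17-fold (adjusted p = 0.00326). The smallest difference that passed was that of JMJD4 (0.53), in 7 of 15 alternatives. The count of 5 was 3 with the line as a block, the median ratio rescaling or without PEF5 or piPSC7, and 2 with equal sums or without PEF7, PEF8 or piPSC5.

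Partner proteins of the members were counted in the same fit, where 30.3% of all 12428 genes tested rose and 2667 fell. Of 14 genes of KDM1A complexes, 8 rose and 3 fell, and with equal sums 5 rose and 3 fell. RCOR2, a CoREST scaffold of stem cells, stood at 1.06 to 1.88 FPKM in PEFs and 4.35 to 10.9 FPKM in piPSCs (1.90 on the log2 scale, limma adjusted p = 0.00486). HDAC2 rose by 1.85 on the log2 scale (limma, adjusted p = 0.000517), with 27.4 to 38.9 FPKM in PEFs and 109 to 131 FPKM in piPSCs, while its paralogue HDAC1 did not pass (-0.45). ZMYM3, CHD4 and MTA2 also rose. HMG20B (-1.09) and GSE1 (-1.74) fell, as did GFI1, a repressor that brings KDM1A to its targets, at 0.574 to 3.00 FPKM in PEFs and listed at 0 in the piPSCs. GFI1 lost its call without PEF8 (adjusted p = 0.0537) or piPSC5 (adjusted p = 0.0556). RCOR1, the main CoREST scaffold, was not analysed here.

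Of 8 genes of the variant Polycomb complex that KDM2B brings to DNA, 5 rose and 0 fell, beside 30.3% of all genes that rose. With the median ratio rescaling 3 rose and 0 fell, and with equal sums 2 rose and 1 fell, RING1 (-0.43, adjusted p = 0.0452). Leaving out PEF5, PEF7 or PEF8 gave 3 higher and leaving out piPSC5 or piPSC7 gave 2. RNF2, the catalytic ubiquitin ligase, stood at 3.69 to 4.68 FPKM in PEFs and 12.8 to 14.3 FPKM in piPSCs (1.52 on the log2 scale, limma adjusted p = 0.000832), and USP7 rose by 0.99 (adjusted p = 0.00500). The smallest difference that passed was that of SKP1 (0.52), in 6 of 15 alternatives. As deposited RING1, the alternative ligase, did not pass (-0.11). Of 7 genes of the KDM6A complex with MLL3 and MLL4, 4 rose and 0 fell, PAXIP1 (1.65) and WDR5 (1.38) most and NCOA6 (0.91) least. In the lists of other JmjC proteins and of KDM2B and KDM6A partners, 0 genes fell at an unadjusted p under 0.05 or with voom as well.

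Enzymes that lay down the marks these members remove were counted as well, where 30.3% of all 12428 genes tested rose and 2667 fell. For H3K4, 5 of 7 genes rose and 1 fell. KMT2A rose most, by 1.25 (limma, adjusted p = 0.0256), and lost its call without PEF7, PEF8, piPSC5 or piPSC8 (adjusted p = 0.0566 to 0.0792). KMT2B, which acts at bivalent promoters, rose by 1.18 on the log2 scale (limma, adjusted p = 0.00793) and kept its call in all 15 alternatives. With the rescalings 3 and 2 rose, without PEF7 2, and without PEF5, PEF8, piPSC5 or piPSC8 3. SETD7, the 1 that fell (-0.85, limma adjusted p = 0.0445), lost its call without PEF5, PEF8, piPSC5 or piPSC7 (adjusted p = 0.114 to 0.128). For H3K9, 3 of 5 rose, SUV39H1 (1.64), SUV39H2 (1.55) and SETDB1 (1.54). Among H3K9 demethylases PHF2 fell, as above, and KDM3A, KDM4A, KDM4B and KDM4C did not pass. Nor did KDM3B (0.50), JMJD1C (0.39), PHF8 (0.56) and KDM7A (-0.52). In KDM3B and PHF8 every piPSC value lay above every PEF value. For H3K27, EZH2 (2.39) and SUZ12 (1.43) rose out of 4. For H3K36, 3 of 6 rose, NSD1 (1.81) and NSD2 (1.32) most and NSD3 (0.83) least. No test compared any of these lists with the members or with other genes.

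**Figure D4:**
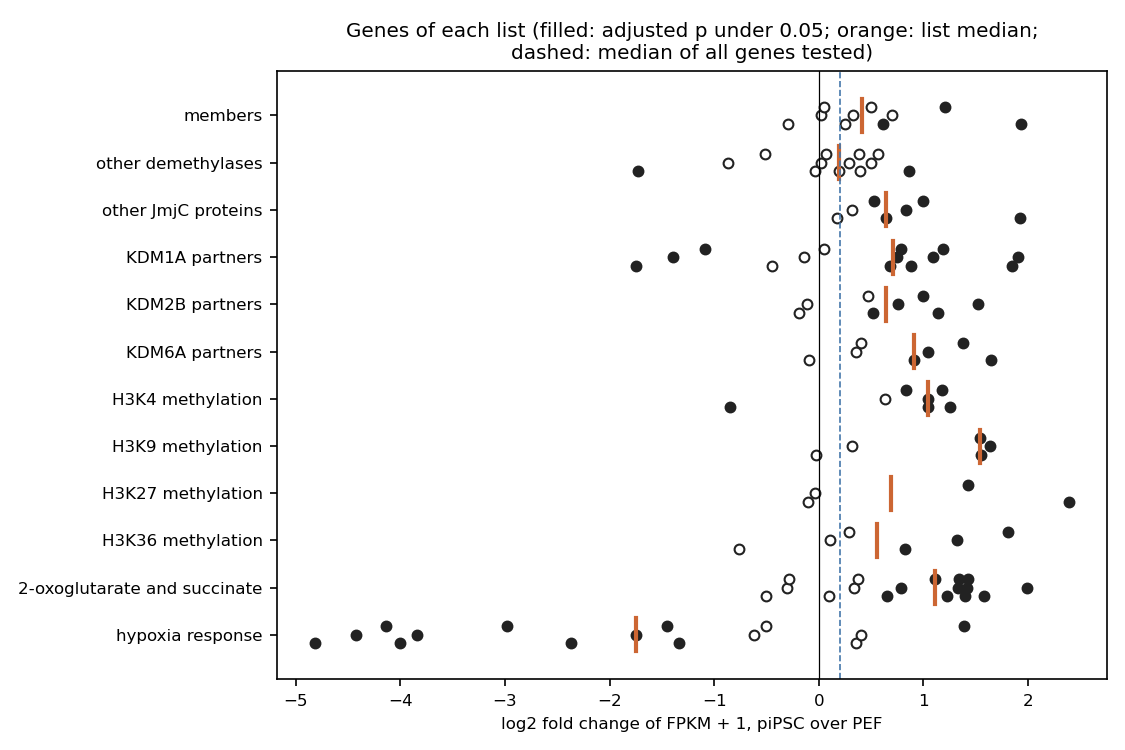
Log2 fold change of FPKM + 1 (piPSC over PEF, horizontal axis) of each tested gene of the 10 members and of 11 lists of related genes, with filled points for an adjusted p under 0.05, orange bars for the median of the list and a dashed line at 0.20 for the median of all genes tested. The median of the members is 0.41, that of the H3K9 methylation list is 1.54 and that of the hypoxia list is -1.74.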

How the data were processed

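RNA-seq values of 3 PEF and 3 piPSC libraries were used (poly-A RNA, 150 bp read from both ends). The authors deposited FPKM per gene with the coordinates of Sscrofa11.1. The submitters' processing notes name Bowtie2 2.2.3, HISAT2 2.1.0 and HTSeq 0.6.0, and the annotation release, the setting for strand and the treatment of shared fragments are not given in the sources used here. Of 13150 symbols shared with RefSeq, 99.8% lay at overlapping positions.

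The values were whole multiples of 1 fragment for each gene (18007 of 18007 within 0.01 fragments), which gave the fragments and totals per library. They carry counting error, so genes with few fragments are less precise. Genes with a mean of at least 0.5 FPKM (12428, all 10 members among them) were tested with limma 3.58.1 in R 4.3.3 (eBayes with trend) on log2(FPKM + 1), two-sided and without pairing (the study's general statement on statistics names an unpaired test, while it set RNA-seq libraries side by side within lines), with Benjamini-Hochberg adjustment over all genes tested. Fold changes on this scale understate the change of low genes. Ratios of paralogues were compared with an exact permutation test over libraries. The fit and the recovery of fragments were tested on simulated data. The simulation of the fit changed only a small part of the genes and held no line or scaling effect. It therefore does not bear on how the calls here depend on scaling.

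Each piPSC line came from the PEF line of its number. Residuals about each group's mean correlated within lines at 0.0921, 0.0946 and 0.08, and between lines at -0.121 to 0.0553, and the line as a block is an alternative. Members and lists were chosen with earlier results of these data known, and promoter motifs after the values were seen. The promoter of 1 member is not reported here. All members are named, and of each list the largest and smallest differences that passed and others by role. Gene names come from the table, and for 875 of 3375 genes listed by identifier from a table of gene names. Alternatives were the block, other pseudocounts, filters and scalings, no trend, voom on the recovered fragments, and each library left out. Protein sequences, ATAC-seq and methylation data were not used here.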

Additional observations from a re-analysis of the deposited data

How the results depend on the processing

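KDM1B kept its call in all 15 alternatives (log2 fold change 1.70 to 2.52), KDM2B in 14 and KDM5B in 6. With the line as a replicate block, 2 of the 10 members passed as higher, and among the members it changed only the call of KDM5B (log2 fold change 0.62, adjusted p = 0.0935). For the paralogue ratios, pairing by line gave exact sign-flip permutation p-values of 0.25 at the least, the smallest 3 lines allow. Of the members, 1 passed as lower (KDM2A) with the median ratio rescaling and 1 with equal sums, in place of 0. Leaving out 1 library at a time gave 1 to 4 members higher and 0 lower. The lowest count came without PEF7, where KDM2B and KDM5B were lost. In the other lists 36 to 41 genes were higher and 13 to 16 lower under the same alternatives, against 47 and 15 of 102. The counts over all genes fell as well. Without 1 library 2738 to 3595 were higher and 2091 to 2504 lower, of 12261 to 12471 tested. With the block 3483 were higher and 2450 lower, against 3763 and 2667 of 12428 without it. The sign turned for KDM3A with quantile normalization (-0.039), median ratio (-0.19), equal sums (-0.26) and without piPSC5 (-0.0037, the lowest without 1 library, the highest being 0.086 without PEF8). It turned for KDM4A with quantile normalization (-0.018), median ratio (-0.24), equal sums (-0.30) and without PEF7 (-0.01), PEF8 (-0.053) or piPSC5 (-0.092), the highest value without 1 library being 0.12, and for KDM4C with equal sums (-0.023). With a pseudocount of 1, the difference of KDM1B over KDM1A was 1.60 in place of 2.21 and that of KDM3B over KDM3A 0.45 in place of 1.11. A pseudocount pulls the ratios of low genes toward equality. Among the members depth limits KDM1B most, with 97 fragments in PEF7. KDM3B, which is not a member, held 34 fragments in PEF7 and at most 104 in any library. The cause of the other changes was not tested.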

Other observations

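Genes around the cofactors of the JmjC enzymes were described as well. Of 17 tested genes for enzymes that make or use 2-oxoglutarate or clear succinate and fumarate, 11 rose and 0 fell in piPSCs (limma, adjusted p under 0.05), where 30.3% of all genes rose. IDH2, the mitochondrial isocitrate dehydrogenase that makes 2-oxoglutarate, stood at 6.08 to 8.03 FPKM in PEFs and 23.8 to 42.8 FPKM in piPSCs, up by 1.99 on the log2 scale (limma, adjusted p = 0.00120). GOT2, the mitochondrial aspartate aminotransferase, rose by 1.39 and FH, fumarate hydratase, by 1.58. The smallest difference that passed was that of GOT1 (0.65), in 9 of 15 alternatives. The cytosolic IDH1 (-0.51) and OGDH (-0.31), which consumes 2-oxoglutarate, did not pass as deposited. At an unadjusted p under 0.05 1 gene, IDH1, was lower, and with voom on recovered fragments 0 were. With the rescalings 10 rose and 2 fell, IDH1 and OGDH being those that fell.

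Of 15 tested genes of the hypoxia response, 1 rose and 10 fell, with a median log2 fold change of -1.74. Over all 12428 genes tested, 3763 rose and 2667 fell. NDRG1 stood at 94.6 to 103 FPKM in PEFs and 1.04 to 4.27 FPKM in piPSCs, with a difference of -4.82 on the log2 scale (limma, adjusted p = 0.000266). HIF1A, the oxygen-sensitive subunit of the hypoxia factor, fell by 1.74 on the log2 scale and VEGFA fell by 4.01. PDK1 was the 1 that rose (1.39). KDM3A and KDM4B, known as targets of the same factor, had log2 fold changes of 0.05 and 0.50 and did not pass. These counts of the hypoxia genes were the same with both rescalings and the replicate block. Without piPSC7 2 rose, and without PEF8 11 fell.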
